A study of Rattus norvegicus with 30 samples.

Results

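The cyclooxygenase and prostaglandin genes were described in the hippocampus of rats given Kainate or, as controls, PBS (phosphate-buffered saline). Kainate activates a class of glutamate receptors and evokes seizures. The genes were Pla2g4a, Ptgs1, Ptgs2, Ptgds, Ptges, Ptger1, Ptger3 and Ptger4, chosen by name, and every probe set annotated to exactly 1 of them was taken. That gave 11 probe sets of 7 genes, out of 7006 probe sets and 4736 genes with a single symbol. No probe set was annotated to Ptges, an inducible prostaglandin E synthase, which is not analysed here.

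Groups of rats were killed 1, 6, 24, 72 or 240 h after treatment. At each time there were 3 Kainate arrays and 3 PBS arrays, 30 arrays in 10 groups, and what all groups share is only that total RNA came from the hippocampus. The labels give no strain, age, sex, dose or route, and do not say whether an array held 1 animal or a pool, so the p-values below speak only of the spread among arrays, which may be technical. Signals are linear intensities with no read depth, and the number of arrays limits their precision. In bulk tissue, fewer cells of a type and less RNA per cell cannot be told apart.

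Prostaglandins are lipid signals made from arachidonic acid. Cytosolic phospholipase A2, encoded by Pla2g4a, cuts arachidonic acid from membrane phospholipids, and a cyclooxygenase, Ptgs1 or Ptgs2, turns it into prostaglandin H2, which terminal synthases such as Ptgds and Ptges convert into the D and E prostaglandins. These act on G protein-coupled receptors, among them the prostaglandin E receptors Ptger1, Ptger3 and Ptger4. In brain, Ptgs2 is known as a gene induced by synaptic activity and by inflammatory signals, and Ptgs1 as the constitutive form.

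A probe set was tested when its signal lay above 35.2, the 40th percentile of all signals, on at least 3 of the 30 arrays, and signals under 10.95, the 20th percentile, were set to that floor before logs were taken. Of the 11 probe sets 7 were tested, of 5 genes: Ptgs1, Ptgs2 (2 probe sets), Pla2g4a, Ptgds and Ptger3 (2 probe sets). The other 4, both of Ptger1, 1 of Ptger3 and that of Ptger4, were too dim. Differences were tested by limma over all 6303 tested probe sets and adjusted by the Benjamini-Hochberg method with a threshold of 0.05. Effects are log2 differences, Kainate minus PBS.

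Across times, 3 of the 7 tested probe sets rose at 6 h and 2 rose at 24 h, and none passed at 1, 72 or 240 h in limma. One of the rises at 24 h was that of D14869_s_at of Ptger3, which met the filter only with the Kainate arrays of that time, so its call is given as a description. Among all tested probe sets 3.24% rose at 6 h and 5.03% rose at 24 h, and 3.93% and 11.3% passed there in either direction. The share passing in either direction was 1.09% at 1 h and 0.0476% at both 72 and 240 h. At an unadjusted p under 0.05 stood 2 of the 7 at 1 h, against 9.68% of all tested probe sets, 0 at 72 h, against 6.33%, and 2 at 240 h, against 12.2%. Kainate and PBS arrays did not overlap for 0 of the 7 at 72 h and 2 at 240 h, against 22.3% and 14.5% of all. The median effect at 6 h was 0.07 over the 7 probe sets and −0.11 over all tested probe sets. The 4 probe sets that did not pass at 6 h, those of Ptgs1, Ptgds and Ptger3, had log2 effects between −0.33 and 0.07.

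**Figure D1:**
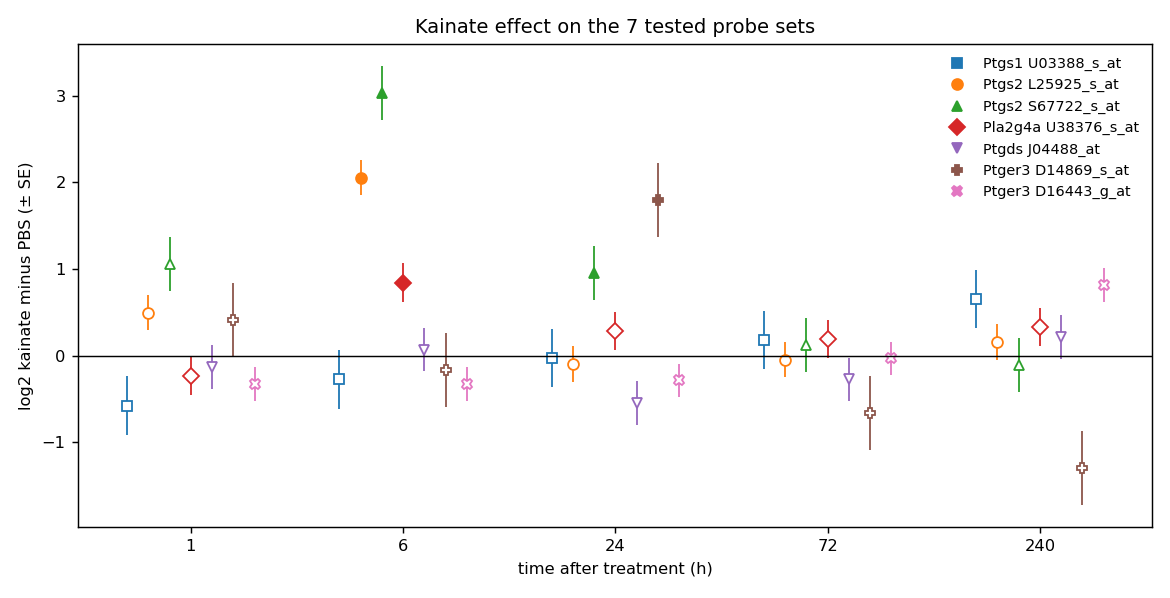
Log2 difference, Kainate minus PBS, with its standard error (y axis) at each time after treatment (x axis) for the 7 tested probe sets, 3 arrays per group. Filled symbols passed the test (adjusted p under 0.05). At 6 h both Ptgs2 probe sets (2.06 and 3.03) and Pla2g4a (0.84) are filled, and at 24 h S67722_s_at of Ptgs2 (0.95) and D14869_s_at of Ptger3 (1.80).

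Pla2g4a supplies the substrate of the pathway. At 6 h its signal was 107, 87.3 and 77.2 on the Kainate arrays, against 56.8, 41.6 and 53.3 on the PBS arrays. All 3 Kainate arrays lay above all 3 PBS arrays. The rise was 1.79-fold (log2 0.84 ± 0.22 SE, 3 arrays against 3, limma adjusted p = 0.0239). It was the smallest of the rises that passed among these genes, and the call was lost without PBS replicate 2 (adjusted p = 0.173), PBS replicate 3 (0.0559), Kainate replicate 1 (0.165) or Kainate replicate 2 (0.0697) of 6 h.

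At the other times Pla2g4a did not pass. Its Kainate signals were 44.6, 39.1 and 32.7 at 1 h, against 39.0, 54.4 and 43.5 in PBS, and the groups overlapped. At 24 h they were 55.9, 50.2 and 59.4, against 45.2, 48.8 and 42.2, without overlap but with a log2 effect of 0.28 (adjusted p = 0.444). At 72 h they were 49.9, 44.9 and 60.3, against 50.4, 38.6 and 46.8, and at 240 h 56.6, 56.0 and 42.8, against 35.2, 38.8 and 49.8, with overlap at both times. At 72 h the log2 effect was 0.19, with 95% limits of −0.26 and 0.64, and 0.33 was the effect at 240 h, with limits of −0.12 and 0.79. The F test for an effect at any time did not pass (limma adjusted p = 0.0671), but passed with no filter on dim probe sets (0.0276), with array weights (0.0230) and with no intensity trend (0.0217). The test for a difference of the effect between times did not pass (adjusted p = 0.191), so the rise at 6 h was not shown to differ from the effects at other times.

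Ptgs2, the inducible cyclooxygenase, was measured by 2 probe sets, and both rose at 6 h. On L25925_s_at the Kainate arrays of 6 h read 346, 275 and 351, against 84.1, 65.7 and 84.2 in PBS. On S67722_s_at they read 420, 509 and 627, against 69.4, 35.045 and 100.5. Every Kainate array stood above every PBS array on both probe sets, and at 6 h 4 of the 7 tested probe sets did not overlap between groups, against 27.8% of all tested probe sets. The rise was 4.16-fold by L25925_s_at (log2 2.06 ± 0.20 SE, 3 arrays against 3, limma adjusted p = 3.55e-08) and 8.19-fold by S67722_s_at (log2 3.03 ± 0.31 SE, adjusted p = 7.00e-08). In order of effect at 6 h S67722_s_at stood 22nd and L25925_s_at 53rd from the highest of 6303.

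The bases upstream of the Ptgs2 start are shown with those of Pla2g4a, which rose at the same time, and of Ptgs1, the cyclooxygenase that did not pass. They are 250 bases each from RefSeq, build GRCr8, read 5′ to 3′ on the strand of the gene, and all 8 genes had an entry. Capitals mark matches on either strand to an E-box (CACGTG), a C/EBP core (TTNNGNAAT), a cAMP response element (TGACGTCA), an AP-1 site (TGANTCA), the NF-kB consensus or the serum response element.
Ptgs2, chr13:64713813-64714062, plus strand: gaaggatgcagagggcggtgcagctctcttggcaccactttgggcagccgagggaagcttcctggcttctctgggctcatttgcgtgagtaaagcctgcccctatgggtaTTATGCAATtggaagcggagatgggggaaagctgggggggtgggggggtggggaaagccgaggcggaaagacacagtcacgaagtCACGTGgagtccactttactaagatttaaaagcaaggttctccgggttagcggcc
Pla2g4a, chr13:64572353-64572602, minus strand: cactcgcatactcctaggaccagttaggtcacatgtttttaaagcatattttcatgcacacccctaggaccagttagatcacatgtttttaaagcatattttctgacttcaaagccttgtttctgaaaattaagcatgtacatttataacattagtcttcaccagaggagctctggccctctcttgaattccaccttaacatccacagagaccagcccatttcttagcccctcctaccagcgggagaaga
Ptgs1, chr3:39981169-39981418, plus strand: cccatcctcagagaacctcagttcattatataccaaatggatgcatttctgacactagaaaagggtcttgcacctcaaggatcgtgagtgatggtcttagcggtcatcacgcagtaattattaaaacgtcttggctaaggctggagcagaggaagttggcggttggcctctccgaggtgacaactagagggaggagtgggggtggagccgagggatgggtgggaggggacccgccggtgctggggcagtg
Only the Ptgs2 window held matches, a C/EBP core 140 to 132 bases and an E-box 55 to 50 bases before the start. Of 33465 RefSeq windows of this length 10.9% held the C/EBP core and 5.59% the E-box. The other motifs were found in 1.59% (cAMP response element), 6.34% (AP-1), 6.33% (NF-kB) and 1.497% (serum response element) of windows and in none of the 8. A match describes letters in this window and is not a measured site. Ptgs2 and Pla2g4a are neighbours on chromosome 13 in this annotation, with 0 protein-coding genes between them.

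At 1 h the effect on Ptgs2 did not pass. On S67722_s_at the Kainate signals of 1 h were 200.1, 117 and 197, against 78.3, 65.9 and 98.1 in PBS. On L25925_s_at they were 92.9, 109 and 121, against 88.7, 63.8 and 77.9. The groups did not overlap on either probe set, as held at 1 h for 3 of the 7 and for 10.4% of all tested probe sets. The log2 effects were 1.06 ± 0.31 SE (adjusted p = 0.123) and 0.49 ± 0.20 SE (adjusted p = 0.378).

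At 24 h 1 of the probe sets passed. At 24 h S67722_s_at read 107, 76.3 and 100.2 on the Kainate arrays, against 45.3, 53.6 and 46.1 on the PBS arrays, a 1.94-fold rise (log2 0.95 ± 0.31 SE, 3 arrays against 3, limma adjusted p = 0.0470). L25925_s_at read 60.2, 52.6 and 72.6, against 58.7, 73.8 and 64.7, with a log2 effect of −0.10 and 95% limits of −0.51 and 0.32. The rise by S67722_s_at lies just under the threshold and was lost in 10 of 14 alternative fits, 5 of which left out an array of 24 h (adjusted p up to 0.144). Its PBS signals at 24 h were also lower than at 1 h, where the lowest was 65.9. The difference between probe sets was not tested.

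At 72 h L25925_s_at read 82.6, 97.6 and 71.3 on Kainate arrays, against 81.3, 87.2 and 89.8 on PBS arrays. At 240 h it read 68.9, 86.9 and 67.1, against 59.0, 89.9 and 54.7. Neither probe set of Ptgs2 passed at 72 or 240 h, and the groups overlapped on both. By L25925_s_at the log2 effects were −0.05 (95% limits −0.47 and 0.37) at 72 h and 0.16 (−0.26 and 0.57) at 240 h. By S67722_s_at they were 0.13 (−0.52 and 0.77) and −0.11 (−0.75 and 0.53).

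The time course itself was tested. The effect on Ptgs2 differed between times by both probe sets (F test, limma adjusted p = 1.74e-05 for L25925_s_at and 9.93e-05 for S67722_s_at), as did 6.62% of all tested probe sets. The effect at 6 h exceeded that at 1 h by 1.56 ± 0.29 SE on the log2 scale (adjusted p = 0.00244) for L25925_s_at and by 1.97 ± 0.44 SE (adjusted p = 0.0178) for S67722_s_at, a difference that 1.09% of all tested probe sets passed. From 6 to 24 h the effect changed by −2.15 ± 0.29 SE (adjusted p = 1.24e-05) and −2.08 ± 0.44 SE (adjusted p = 0.00428), where 5.24% of all tested probe sets passed. The steps from 24 to 72 h and from 72 to 240 h did not pass. The highest correlation of an array with another was 0.955 to 0.978 at 6 and 72 h. At 1, 24 and 240 h it was 0.934 to 0.959. Every step between consecutive times, for any gene, crosses between these sets of arrays. The part of this difference between the sets in the steps was not tested.

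**Figure D2:**
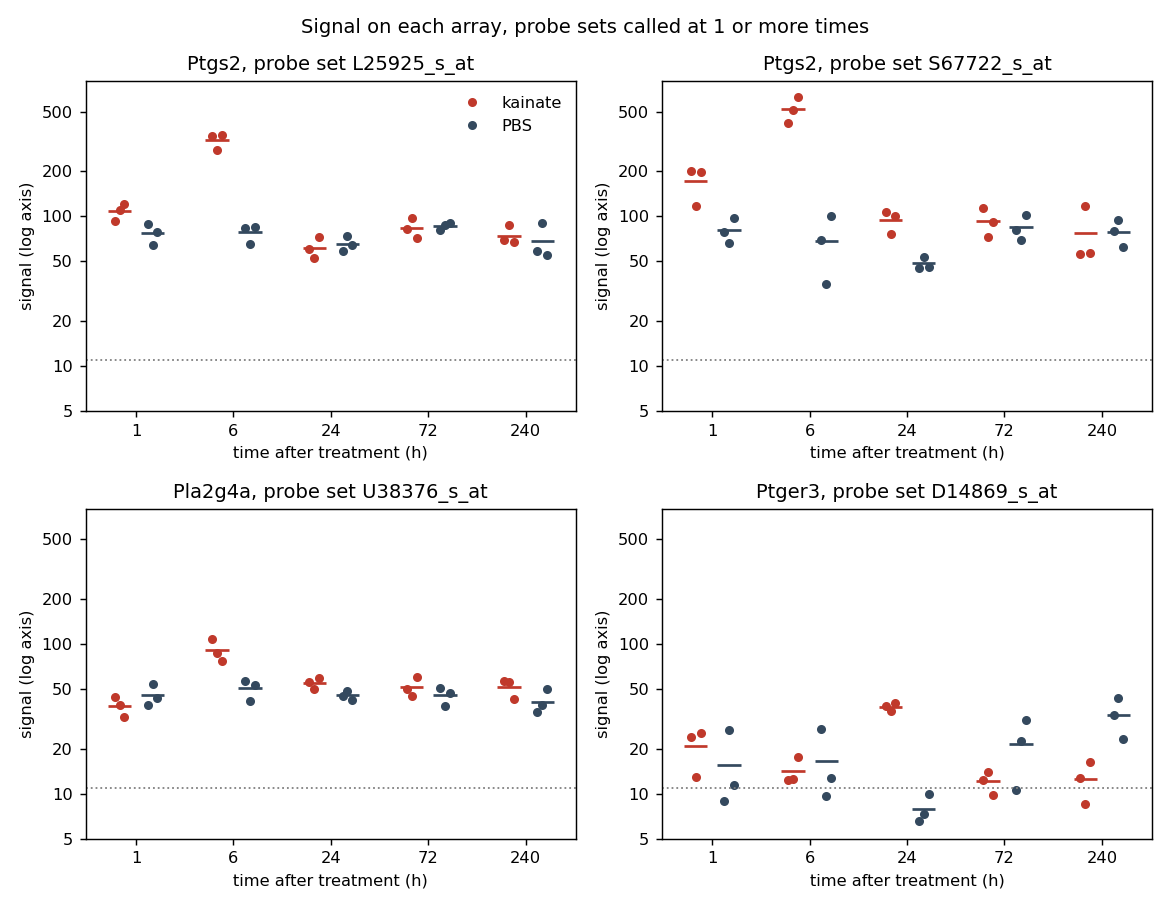
Signal on each array (log axis) against time after treatment for the 4 probe sets that passed at 1 or more times. Points are arrays, 3 per group with Kainate left of PBS, bars are group means, and the dotted line is the floor of 10.95. The Kainate arrays of 6 h stand apart for both Ptgs2 probe sets and Pla2g4a, and for D14869_s_at of Ptger3 the Kainate arrays of 24 h (35.6 to 40.6) stand above PBS arrays that all lie under the floor.

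**Figure D3:**
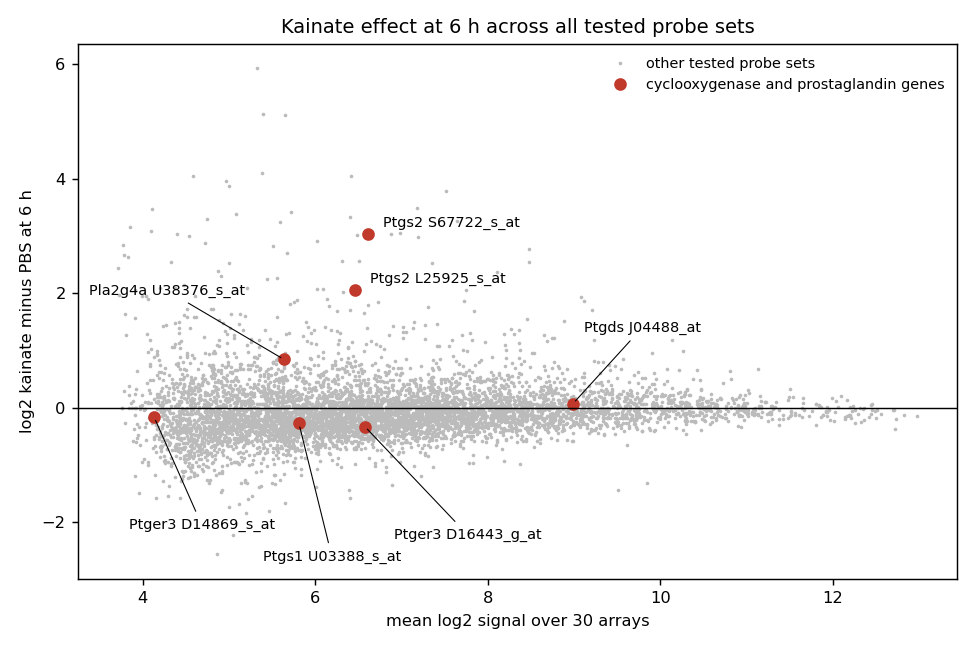
Log2 difference, Kainate minus PBS, at 6 h (y axis) against the mean log2 signal over 30 arrays (x axis) for all 6303 tested probe sets, with the 7 probe sets of these genes in red. Both Ptgs2 probe sets (3.03 and 2.06) stand above the mass of points, Pla2g4a lies at 0.84, and Ptgs1, Ptgds and Ptger3 lie between −0.33 and 0.07.

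Ptgs1, the constitutive cyclooxygenase, which in brain is known from microglia, did not pass at any time. At 1 h its signals were 34.6, 36.7 and 93.1 on the Kainate arrays, against 88.9, 78.1 and 56.6 on the PBS arrays. At 240 h they were 74.8, 112 and 45.2, against 52.4, 52.9 and 35.05. The groups overlapped at these and all other times, and 1 Kainate array of 1 h, at 93.1, was the highest of its 6. The log2 effects were −0.58 (95% limits −1.27 and 0.11), −0.28 (−0.97 and 0.41), −0.03 (−0.72 and 0.66), 0.18 (−0.51 and 0.87) and 0.66 (−0.04 and 1.35) at 1, 6, 24, 72 and 240 h. At 6 h the upper limit for Ptgs1 lay below the lower limit for either probe set of Ptgs2, 1.64 for L25925_s_at and 2.39 for S67722_s_at. With 3 arrays per group, the spread of this probe set does not exclude changes within these limits.

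Ptgds, the lipocalin-type prostaglandin D synthase, is known from leptomeninges, choroid plexus and oligodendrocytes. Its signals at 24 h were 383, 609 and 403 on the Kainate arrays, against 515, 820 and 692 on the PBS arrays. The groups overlapped, and the log2 effect of −0.55 ± 0.25 SE did not pass (limma adjusted p = 0.162, 95% limits −1.06 and −0.03). The effects at 1, 6, 72 and 240 h were −0.13, 0.07, −0.28 and 0.22, and none passed.

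Ptgds also differed between times among the PBS arrays. On the Kainate arrays its signals were 355, 401 and 231 at 1 h, 395, 565 and 386 at 6 h, 383, 609 and 403 at 24 h, 426, 391.6 and 559 at 72 h, and 986, 893 and 884 at 240 h. On the PBS arrays they were 302, 310 and 461 at 1 h, 484, 531 and 290 at 6 h, 515, 820 and 692 at 24 h, 432, 678 and 565 at 72 h, and 1007, 636 and 776 at 240 h. In both treatments the arrays of 240 h all lay above those of 1 h. The PBS groups differed (F test, limma adjusted p = 0.00768), which held for 1 of the 7 tested probe sets and for 16.9% of all. The beta-actin ratio, given below, also differed between times, and its part in these levels was not tested.

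Of 6 measured oligodendrocyte markers 4, the myelin genes Mog, Mobp, Cnp and Mal, differed among the PBS groups by the same F test. Mog, a myelin surface protein, read 499, 604 and 655 on the Kainate arrays of 240 h and 244, 193 and 159 on those of 1 h. On the PBS arrays it read 584, 644 and 541 at 240 h and 204, 193 and 229 at 1 h. The summed signal of the 6 markers ran from 10716 to 13244 on Kainate arrays and from 11672 to 12761 on PBS arrays of 240 h, and from 6280 to 7822 on Kainate arrays and from 6416 to 8249 on PBS arrays of 1 h. Mbp and Mag, the other markers, did not pass (adjusted p = 0.0903 and 0.264), and on the PBS arrays Mag read 664, 851 and 1001 at 240 h but 1173, 971 and 940 at 72 h. Between treatments, the summed signal was lower after Kainate without overlap at 6 h (6551 to 7145 against 7272 to 7398 in PBS). So it was at 24 h (6218 to 6860 against 7806 to 8051), the time of the lowest Ptgds effect. Mbp gave the largest signals in this sum, and the median log2 effect of the 6 markers was 0.008 at 6 h and −0.26 at 24 h. This median was lowest at 72 h, at −0.42, where the Ptgds effect was −0.28. The sums of 72 h overlapped (6346 to 9419 on Kainate arrays against 9262 to 10115 in PBS). Mog was higher after Kainate at 24 h without overlap (270, 237 and 248 against 209, 179 and 196 in PBS). Mag, Cnp and Mal overlapped at that time. At 24 h 0 of the 6 markers passed in limma, where 11.3% of all tested probe sets passed. The 2 choroid plexus markers tested, Ttr and Kl, did not differ among PBS groups by this test (adjusted p = 0.211 and 0.419), but their summed signal varied between single arrays, from 167 to 5130 over the Kainate arrays and from 148 to 3950 over the PBS arrays. Over 9 leptomeningeal markers the sum was 965 to 1032 on PBS arrays of 240 h, against 1201 to 1280 at 1 h. On Kainate arrays it was 959 to 1037 at 240 h, against 1021 to 1116 at 1 h. The part of any of these cell types in the Ptgds signal was not tested.

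**Figure D4:**
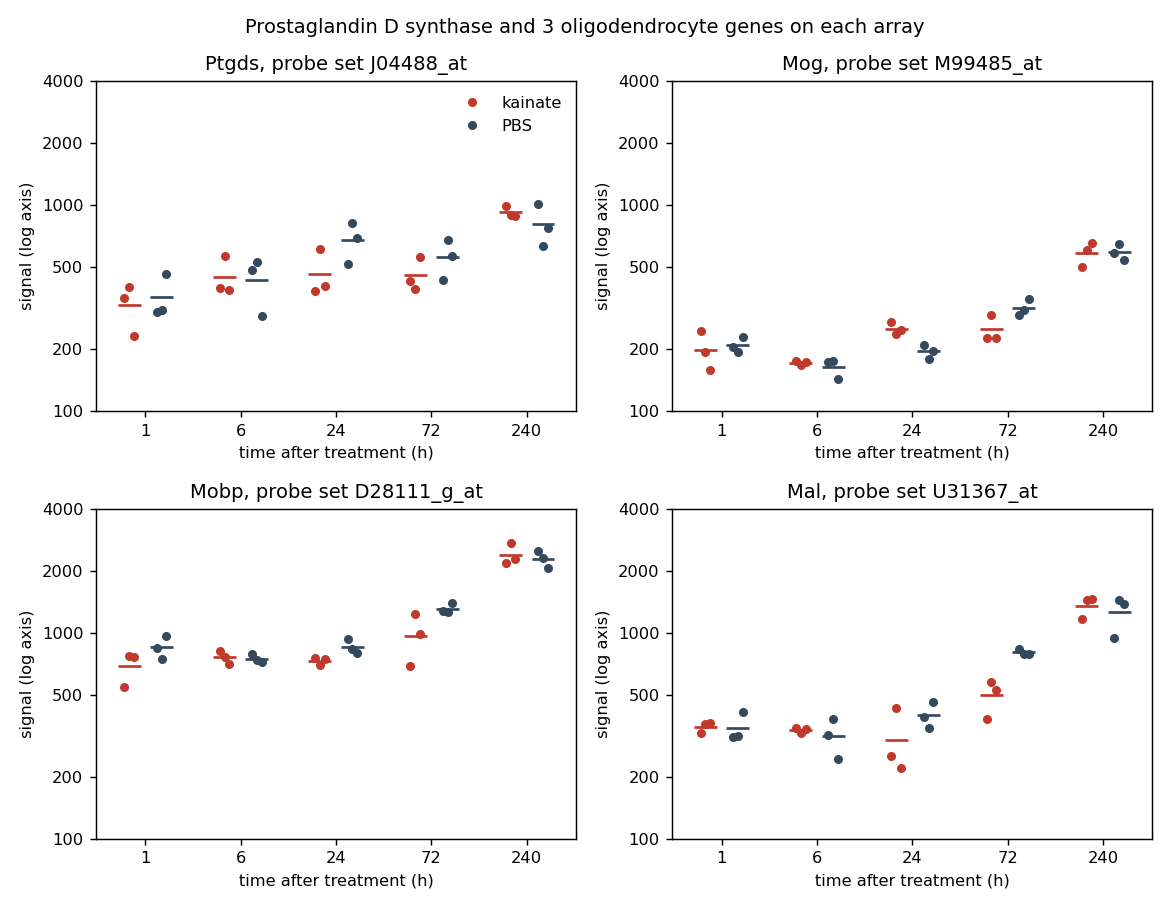
Signal on each array (log axis) against time after treatment for Ptgds and for the oligodendrocyte genes Mog, Mobp and Mal. Points are arrays, 3 per group with Kainate left of PBS, and bars are group means. All 4 genes have their highest group mean at 240 h in both treatments, where Ptgds lies between 636 and 1007. Mog, Mobp and Mal are from the 4 of 6 oligodendrocyte markers that differed among PBS groups. Cnp, and Mbp and Mag, which did not pass that test, are not shown.

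Of the 6 probe sets of prostaglandin E receptors 4 were too dim to be tested. Ptger4, which raises cyclic AMP, stayed under the floor on all 30 arrays, with signals from 3.15 to 9.33 on Kainate arrays and from 2.95 to 5.95 on PBS arrays. Ptger1, which signals through calcium, lay between 4.85 and 12.3 on Kainate arrays and between 6.35 and 23.2 on PBS arrays by D88751_at. By rc_AA858510_at it lay between 3.50 and 27.2 on Kainate arrays and between 7.29 and 43.3 on PBS arrays, above 35.2 on 2 of 30 arrays. D16443_at of Ptger3 lay between 2.64 and 16.4 on Kainate arrays and between 2.25 and 11.8 on PBS arrays. Fitted without the filter, these 4 probe sets gave no adjusted p under 0.05 in 20 tests by limma (lowest 0.142), with 1 at an unadjusted p under 0.05. At 24 h both probe sets of Ptger1 had Kainate arrays below all PBS arrays. D88751_at read 5.36, 5.77 and 4.85 on the Kainate arrays, against 6.35, 6.75 and 12.8 on the PBS arrays, and rc_AA858510_at read 3.50, 7.96 and 4.90, against 13.1, 17.4 and 13.2. At that time 28.2% of all tested probe sets did not overlap. All of these Kainate signals of 24 h lay under the floor, as did 2 of the 3 PBS signals on D88751_at, so the size of a fall was not measured.

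Ptger3, a receptor that lowers cyclic AMP and has several splice forms, was the only receptor of the 3 with tested probe sets, and they moved differently. On D14869_s_at the Kainate signals at 24 h were 38.3, 35.6 and 40.6, against 6.57, 7.37 and 9.88 in PBS. The groups did not overlap, as held at 24 h for 4 of the 7 and for 28.2% of all tested probe sets. All 3 PBS arrays lay under the floor, so the signal was at least 3.48-fold higher after Kainate (log2 1.80 ± 0.43 SE, 3 arrays against 3, limma adjusted p = 0.00676). This probe set was above 35.2 on 4 of 30 arrays, of which 3 were these Kainate arrays, so it met the filter only with the group in which it was high, and its call is no support for a change. PBS signals at other times reached 43.4, at 240 h, above all Kainate arrays of 24 h.

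On D16443_g_at, the brighter probe set, Ptger3 read 85.0, 85.6 and 96.3 on the Kainate arrays of 24 h, against 106, 105 and 115 on the PBS arrays. The Kainate arrays were lower without overlap, with a log2 effect of −0.29 ± 0.19 SE that did not pass (adjusted p = 0.357). They were also lower without overlap at 1 h, with 73.0, 57.8 and 73.4 against 84.1, 80.6 and 89.8, and at 6 h, with 109.5, 116.9 and 66.7 against 117.1, 120.0 and 120.8. The log2 effect was −0.33 at both times and did not pass (adjusted p = 0.639 and 0.439). At 72 h the groups overlapped, with a log2 effect of −0.03. At 240 h they read 124, 148 and 138, against 61.0, 81.8 and 92.7. The Kainate arrays were all above the PBS arrays, and the log2 effect of 0.82 ± 0.19 SE did not pass (adjusted p = 0.0741, unadjusted p = 0.000235). D14869_s_at had the opposite sign at 240 h, with 12.7, 8.54 and 16.2 against 33.4, 43.4 and 23.1 and a log2 effect of −1.30 ± 0.43 SE that did not pass either (adjusted p = 0.229). Its effects at 1, 6 and 72 h were 0.42, −0.16 and −0.67, with overlap, and did not pass.

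For both tested probe sets of Ptger3 the effect differed between times (F test, limma adjusted p = 0.00947 for D14869_s_at and 0.0212 for D16443_g_at). Both calls were lost with the replicate block (0.0667 and 0.0532), and that of D16443_g_at with array weights (0.0570). For D14869_s_at the step from 24 to 72 h was −2.47 ± 0.60 SE (adjusted p = 0.0461), a step that 0.746% of all tested probe sets passed. It was lost with array weights (0.0628) and the replicate block (0.188). The step from 6 to 24 h was 1.96 ± 0.60 SE and did not pass (adjusted p = 0.0538), but passed with the floor at the 10th percentile (0.0441), no filter (0.0456), array weights (0.0385) and no intensity trend (0.0333). Both steps rest on PBS arrays of 24 h set to the floor, so their sizes are not exact. Both steps and the F test of D14869_s_at use the Kainate arrays of 24 h through which it met the filter. They are therefore no support for a change over time. No single step passed for D16443_g_at. With opposite signs at 24 and 240 h the probe sets give no common direction for the gene.

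**Figure D5:**
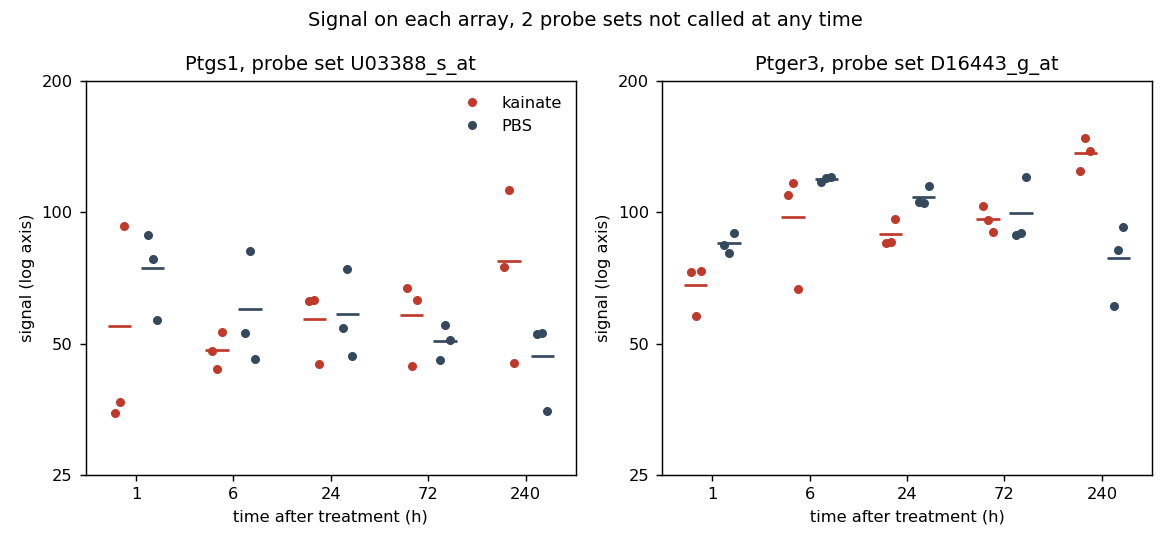
Signal on each array (log axis) against time after treatment for Ptgs1 and for D16443_g_at of Ptger3, which did not pass at any time. Points are arrays, 3 per group with Kainate left of PBS, and bars are group means. The Ptgs1 groups overlap at every time, and the Kainate arrays of 240 h stand above the PBS arrays for Ptger3 (124 to 148 against 61.0 to 92.7).

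An F test for an effect at any time passed for 4 of the 7 tested probe sets, those of Ptgs2 and Ptger3, and for 9.33% of all tested probe sets. One of the 4, D14869_s_at of Ptger3, met the filter only with its Kainate arrays of 24 h, so its pass is no support for an effect. It did not pass for Ptgs1 (limma adjusted p = 0.408), Pla2g4a (0.0671) or Ptgds (0.452).

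Other genes of the pathway were taken from lists. Of 30 listed phospholipase, prostanoid synthase, receptor and transport genes 19 had a probe set and 13 were tested, and 1 passed, at 24 h, where 11.3% of all tested probe sets passed. It was Hpgds, the hematopoietic prostaglandin D synthase, with 19.7, 39.1 and 46.7 by D82071_at on the Kainate arrays of 24 h, against 3.63, 6.31 and 23.6 in PBS. The groups overlapped and 2 of 3 PBS arrays lay under the floor (log2 1.22 ± 0.40 SE, limma adjusted p = 0.0473), and its other probe set, AF021882_s_at, did not pass (log2 1.25, adjusted p = 0.208). At an unadjusted p under 0.05 stood 1 of the 13 at each of 1, 72 and 240 h, against 9.68%, 6.33% and 12.2% of all tested probe sets. Among the effects that did not pass were those of Hpgds at 6 h (log2 −1.02 by D82071_at, without overlap, adjusted p = 0.197), of the thromboxane receptor Tbxa2r at 72 h (−0.88, with overlap, 0.766) and of the prostaglandin transporter Slco2a1 at 240 h by rc_AA800797_at (−1.43, without overlap, 0.101). The probe set that stands for Slco2a1, M64862_at, had −0.08 at 240 h. Of the 5 tested leukotriene and lipoxygenase genes 0 passed at any time in limma. At 1, 72 and 240 h 1, 1 and 0 of them had an unadjusted p under 0.05.

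Among 3 tested genes from a list of glucocorticoid and annexin genes, Sgk1, a kinase induced by glucocorticoids, rose at 6 h, as did 3.24% of all tested probe sets. Nr3c1, the glucocorticoid receptor, did not pass at any time. For Sgk1 a link to phospholipase A2 was not tested. The Sgk1 signals at 6 h were 265, 308 and 341 on the Kainate arrays, against 141, 110 and 99.0 on the PBS arrays (log2 1.40 ± 0.20 SE, limma adjusted p = 1.42e-05). The groups did not overlap. Anxa1, a protein known to inhibit phospholipase A2, gave 56.9, 45.5 and 44.6 by rc_AI171962_s_at on the Kainate arrays of 24 h, against 15.1, 17.2 and 20.1 in PBS (log2 1.49 ± 0.31 SE, adjusted p = 0.00248). This probe set met the filter only with those Kainate arrays, so its call is no support for a change. The probe set that stands for Anxa1 in the list, S57478cds_s_at, did not pass.

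The genes whose 5 effects were most like those of each called probe set were sought among the 353 genes that passed the F test for any effect. For L25925_s_at of Ptgs2 they were Socs3 (Pearson r = 0.996 over 5 times), Ptpro, Olfm1, Hsph1 and Syne1. For S67722_s_at they were Syt4 (r = 0.996), Rheb, Bdnf, Ezr and Nptx2. Pla2g4a was closest to Slc5a3 (r = 0.979), Ptp4a2, Icam1, Ifitm10 and Pdp1, and D14869_s_at of Ptger3 to Rpl18 (r = 0.984), Apod, Cd63, Rpl14 and Nme1. The likeness is one of shape. At 6 h the log2 effect was 2.998 for Socs3 and 3.05 for Bdnf, but 0.13 for Olfm1.

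Markers of cell types stood beside these changes as follows. At 6 h the summed signal of 5 endothelial markers was 699.8 to 754 on Kainate arrays, against 392.2 to 428 on PBS arrays. Slc2a1, which carries glucose into the brain, was the 1 of the 5 that passed, and the median log2 effect of the 5 was 0.03. The summed signal of 5 microglia and macrophage markers was 443 to 589 on Kainate arrays, against 433 to 475 on PBS arrays, at 6 h. At 24 h it was 681 to 873, against 399 to 452. C1qb, a complement chain, passed at both times, and the median log2 effect of the 5 was −0.12 at 6 h and 0.29 at 24 h. The microglial markers Itgam and Csf1r were too dim to be tested. Of 7 tested neuron markers 2 fell at 24 h, Camk2a and Nefl, with a summed signal of 4851 to 5267 on Kainate arrays, against 5664 to 6084 on PBS arrays. The neuron sum of 6 h was 6752 to 7073 on Kainate arrays, against 6035 to 6239 on PBS arrays, and 0 of the 7 passed. At 24 h 2 of 7 astrocyte markers fell (Aldoc and S100b), 1 of 9 leptomeningeal markers rose (Igfbp2) and 1 of 4 blood markers fell (Slc4a1). Of the 5 endothelial markers 1 rose at 24 h, and their median log2 effect was 0.06. Their sum was 604 to 691 on Kainate arrays, against 441 to 572 on PBS arrays. No marker of oligodendrocytes or choroid plexus passed at any time in limma. Of all tested probe sets 11.3% passed at 24 h, with 5.03% rising, and 3.93% passed at 6 h. The part of any of these cells in the changes above was not tested. Beta-actin probe sets at both ends of the transcript gave a log2 ratio, a sign of RNA quality, that lay between 0.25 and 0.59 at 6 and 72 h and between 0.33 and 0.95 at 1, 24 and 240 h. At 6 h it was 0.36 to 0.46 on Kainate arrays, against 0.45 to 0.59 on PBS arrays. At 1 h it was 0.69 to 0.93 on Kainate arrays, against 0.33 to 0.75 on PBS arrays.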

How the data were processed

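Total RNA of rat hippocampus was measured on Affymetrix arrays, and the authors deposited 1 linear signal intensity per probe set and array. How images became signals is not stated in the labels. Trimmed means (2% cut at either end) ranged from 150.1 to 150.2 over 30 arrays. Each array was scaled to their mean, and signals were floored at the 20th percentile (10.95, log2 3.45) and turned into log2. The 59 array controls were left out. Groups follow the sample titles. Genes were named by the supplied annotation of the platform, and 308 probe sets with several genes were not named.

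Tests used limma 3.58.1 in R 4.3.3, with a mean per group over 30 arrays, empirical Bayes with an intensity trend, 20 residual and 7.26 prior degrees of freedom, and Benjamini-Hochberg adjustment over 6303 probe sets. The procedure was tested on simulated data. Figures were drawn with matplotlib 3.10.9 in Python 3.11.15. The members, lists, markers and tests were chosen with earlier results of these data known. Every tested member is named at every time, and the 4 dim probe sets by their ranges. Listed pathway genes are named where they passed, with the tested probe set of highest mean log2 signal standing for each gene. Anxa1, Slco2a1, Tbxa2r and the effect of Hpgds at 6 h were singled out after their values were seen. For each called probe set the 5 genes most alike in their effects are named.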

Additional observations from a re-analysis of the deposited data

Results flagged for a closer look

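The Kainate effect differed between the 5 times, by an F test on the differences of the effects (limma), for 4 probe sets. These were L25925_s_at of Ptgs2 (adjusted p = 1.74e-05) and S67722_s_at of Ptgs2 (adjusted p = 9.93e-05), with the highest effect at 6 h, and D14869_s_at (adjusted p = 0.00947) and D16443_g_at of Ptger3 (adjusted p = 0.0212). For Ptger3 the highest effect was at 24 h on D14869_s_at (log2 1.80) and at 240 h on D16443_g_at (log2 0.82), where the effect of D14869_s_at was −1.30. D14869_s_at met the filter only with its Kainate arrays of 24 h, so its test is no support for a difference between times. Groups of 3 arrays are too small for a test of single outlying arrays.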

How the results depend on the processing

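Under all 14 alternatives both Ptgs2 probe sets kept their call at 6 h (log2 1.94 to 2.17 for L25925_s_at and 2.62 to 3.38 for S67722_s_at). At 24 h 1 probe set in place of 2 passed with no filter on dim probe sets, with array weights, with no intensity trend, and with only the arrays of 1, 24 and 240 h or only those of 24 h. Leaving out 1 array of 24 h gave 1 to 2. The call lost was that of S67722_s_at of Ptgs2 (adjusted p 0.0228 to 0.144 over its alternatives). Pla2g4a at 6 h lost its call in 6 of 14 (adjusted p 0.00314 to 0.173), among them the replicate block (0.0742) and only the arrays of 6 h (0.0592).

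With the replicate block, 2 in place of 4 probe sets passed the F test of any effect and 2 in place of 4 that of a difference between times. Both of Ptger3 were lost (adjusted p = 0.0758 and 0.0603 for any effect in limma), and D16443_g_at also with array weights (0.0647). Same-numbered arrays deviated together with correlations of −0.07 to 0.17, over 0.1 in 3 of 15 pairs, so the numbers were not taken to pair the arrays. Steps between consecutive times passed in 5 cases, and in 4 to 7 over 6 alternatives, 4 of them chosen after seeing the data. With the floor at the 10th percentile 2 in place of 1 differed among PBS groups. Of 70 alternatives for called effects 16 lost the call and 0 changed sign.

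Of 420 alternatives for effects that did not pass, 20 changed sign. With quantile normalization Ptgs1 was 0.025 at 24 h, D14869_s_at 0.017 at 6 h and D16443_g_at 0.0227 at 72 h, and with array weights D16443_g_at was 0.0229 at 72 h. Leaving out 1 array gave −0.18 to 0.16 for Ptgs1 at 24 h, −0.22 to 0.014 for L25925_s_at at 24 h and −0.16 to 0.063 at 72 h, −0.034 to 0.29 for S67722_s_at at 72 h and −0.46 to 0.078 at 240 h. It gave −0.29 to 0.10 for Ptgds at 1 h and −0.20 to 0.24 at 6 h, −0.42 to 0.23 for D14869_s_at at 6 h and −0.10 to 0.11 for D16443_g_at at 72 h. The cause of these changes of sign was not tested. The 4 receptor probe sets too dim to be tested give no measure of the size of a change.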
